A study of Homo sapiens with 16 samples.

Results

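Bisphenol A and estradiol were compared in ECC-1 cells, asking which genes come to the estradiol level with bisphenol A and which stay below or above it. ECC-1 is a human endometrial cancer cell line that carries estrogen receptor alpha, the product of ESR1. The libraries were chosen by their titles: 2 of cells given 100 nM bisphenol A (BPA) for 8 h and 2 of cells given 10 nM 17β-estradiol for 8 h, 4 of the 16 RNA sequencing libraries of the series. The doses differ, so every result is about these doses and says nothing of equal ones. For the level without a compound, the 2 ECC-1 libraries that received 0.02% DMSO were used. For a choice of estrogen-responsive genes made on levels in other libraries, the 2 ECC-1 libraries given 100 nM genistein, a soy isoflavone, served. The same compounds were given to T-47D breast cancer cells, which are used here to test differences between the lines. All groups shared 5 days in phenol red-free medium with 10% charcoal-treated serum, which holds little hormone. Each group has 2 libraries of polyadenylated RNA. The labels do not say whether these came from separate cultures, so p-values measure the spread between these libraries, which may be technical.

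Estrogen receptor alpha is a transcription factor that estradiol binds and switches on. The receptor then sits on DNA, at estrogen response elements or beside other factors, and raises or lowers transcription of nearby genes, a different set in the endometrium than in the breast. BPA, a monomer of polycarbonate plastics and epoxy resins, and genistein also bind the receptor, BPA much more weakly than estradiol. A compound that drives a receptor response below that of the full hormone leaves genes between the untreated and the hormone level.

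A pair of neighbouring genes that stayed below the estradiol level, ALPP and ALPPL2, and a gene that reached it, VASN, are shown by their promoter windows, because these are the genes of either kind whose window holds the half-site AGGTCA of the estrogen response element. The sequences are RefSeq windows on GRCh38.p14, from 250 bases before to 50 bases after the annotated start, read 5′ to 3′ on the plus strand, with the half-site in capitals. They lie at chr2:232378501-232378800, chr2:232406594-232406893 and chr16:4371598-4371897.
ALPP: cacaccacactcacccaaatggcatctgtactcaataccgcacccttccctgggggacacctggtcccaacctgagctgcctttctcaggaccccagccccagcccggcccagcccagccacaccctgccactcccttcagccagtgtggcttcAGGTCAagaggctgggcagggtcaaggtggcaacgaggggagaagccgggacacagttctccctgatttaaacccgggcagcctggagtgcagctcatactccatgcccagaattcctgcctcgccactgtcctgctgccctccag
ALPPL2: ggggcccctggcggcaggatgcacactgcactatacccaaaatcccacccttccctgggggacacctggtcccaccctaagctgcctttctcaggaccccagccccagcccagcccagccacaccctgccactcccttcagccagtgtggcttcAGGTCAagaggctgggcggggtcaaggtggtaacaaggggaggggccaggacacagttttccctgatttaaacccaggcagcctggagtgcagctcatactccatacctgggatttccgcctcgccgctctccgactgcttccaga
VASN: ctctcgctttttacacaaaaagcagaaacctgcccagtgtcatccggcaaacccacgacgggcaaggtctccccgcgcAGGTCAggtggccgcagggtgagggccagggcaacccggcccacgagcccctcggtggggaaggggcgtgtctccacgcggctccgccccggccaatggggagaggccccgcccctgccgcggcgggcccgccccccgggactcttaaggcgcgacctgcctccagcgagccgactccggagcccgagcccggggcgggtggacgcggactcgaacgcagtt
The half-site starts 96 bases before the annotated start in both alkaline phosphatase genes and 172 bases before it in VASN. Searched on both strands, it stood in 2 of the 15 genes with a window, of 19 lower with BPA than with estradiol, and in 1 of the 9 with a window, of 14 that reached the estradiol level, against 16.5% of 27305 genes with a window. The full element, GGTCA and TGACC with any 3 bases between them, also searched on both strands, stood in none of those 15 and 9 genes, and in 20 (0.0732%) of the genes with a window. The ALPP and ALPPL2 windows were 92.6% identical over 242 aligned bases, and their longest coding transcripts 91.7% identical over 2452 bases, so the deposited values may not split reads between them cleanly. A match is a description of letters and not of binding.

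Levels are scaled RPKM, that is, reads per kilobase of transcript and per M reads, with libraries brought to a common median. Differences are BPA minus estradiol on the log2(scaled RPKM + 0.5) scale, which understates the change of low genes, with the standard error (SE) or 95% interval of a limma fit over 13827 genes. A gene is called at a Benjamini-Hochberg adjusted p under 0.05. Depth estimated from the steps of low values was 22.12 and 28.42 M reads with BPA, 18 and 18.44 with estradiol and 17.36 to 29.32 over the series. All 6 endometrial markers (PAX8, EMX2, SOX17, HOXA10, HOXA11, MSX1) were over 1 RPKM in ECC-1, with sums of 330.0 and 375.0 with BPA and 345.0 and 343.0 with estradiol, against 0.579 to 0.985 in T-47D. The 6 luminal breast markers summed to 5.37 and 2.54 with BPA and 4.16 and 2.83 with estradiol, against 751.0 to 998.0 in T-47D, and PIP was at 0 in all 4 ECC-1 libraries. The 6 leukocyte markers summed to 211.0 and 214.0 with BPA and 230.0 and 242.0 with estradiol, against 2.38 to 2.98 in T-47D. Of them only LCP1 was over 1 RPKM, and HBB was at 0 in all 4.

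The first estradiol library stood apart. The log2 difference between the pair of estradiol libraries had an SD over genes of 0.343, against 0.17 between the BPA libraries. The first estradiol library also carried a trend with transcript length, with a rank correlation over genes of 0.56 between length and its deviation from the line's mean. Values without it are given beside most genes, from a fit in which the lone estradiol library is assumed to vary like the other groups. What sets it apart is not given in the labels.

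BPA and estradiol left different levels at 21 genes, 0.152% of those tested. The 19 lower with BPA (0.137%) included G0S2, an inhibitor of the triglyceride lipase ATGL, the placental-type alkaline phosphatases ALPP and ALPPL2, thrombospondin 1 (THBS1), the metalloproteinase MMP17 and the kinase PIM1. Their differences ran from -1.74 to -0.77. In bulk RNA, a lower level in every cell and fewer cells with the level cannot be told apart. The 2 higher with BPA (0.0145%) were TRIM43 and SNORA25. At an unadjusted p under 0.05 there were 976 genes (7.06%). All 21 kept their direction in all 22 other ways of processing in which they were measured. In each gene every BPA library lay on the same side of every estradiol library. Over all genes both BPA libraries lay below both estradiol libraries in 18.7% and above them in 13.9%. The 21 were called on these same libraries, so neither result is added support. The count rests on single libraries: without the first estradiol library only PIM1 and DEGS2 stayed called, and without the second BPA library only PIM1. Without the second estradiol library, which leaves the one that stood apart, 505 genes were lower and 445 higher. In the fit without the first estradiol library the 19 differences ran from -1.87 to -0.62.

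**Figure D1:**
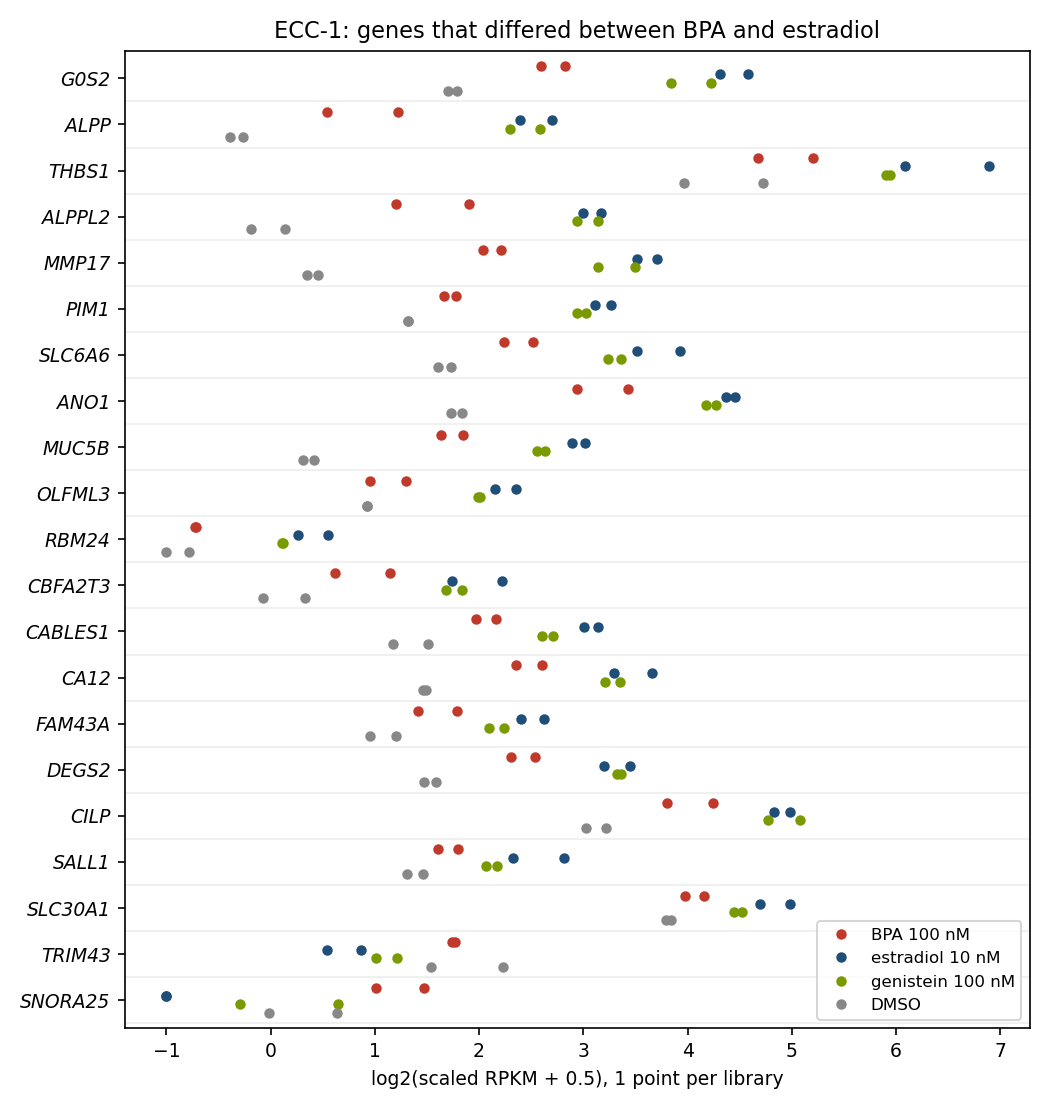
Level of each of the 21 called genes in the 8 ECC-1 libraries, as log2(scaled RPKM + 0.5), 1 point per library, coloured by compound and ordered by the difference. In the upper 19 genes both BPA points lie to the left of both estradiol points.

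**Figure D2:**
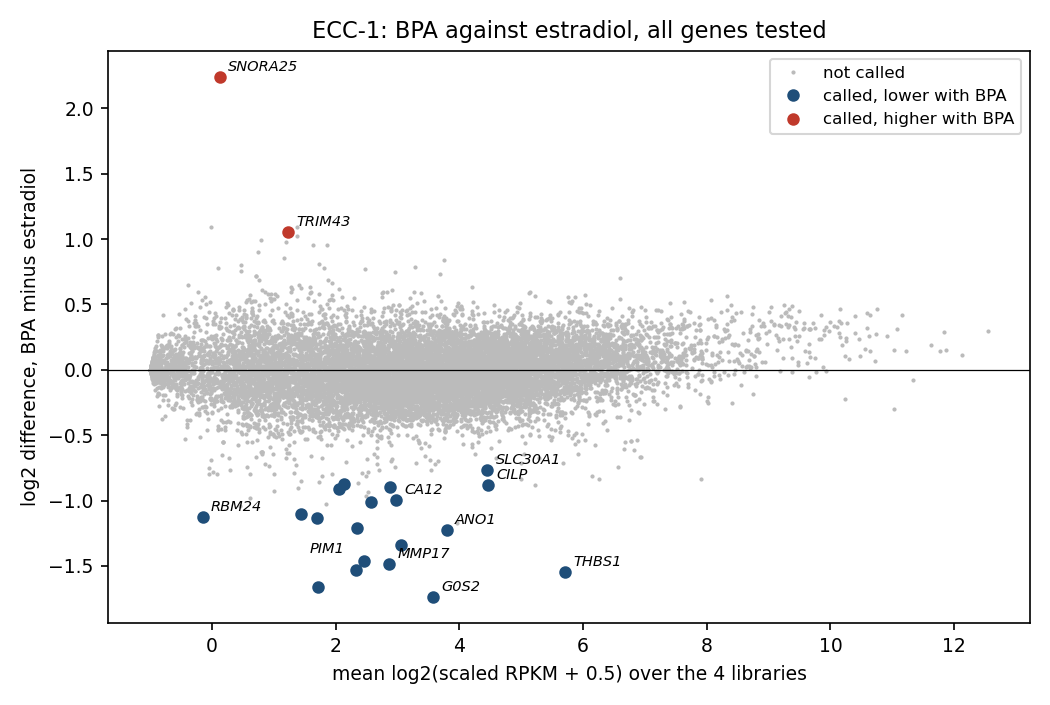
Log2 difference, BPA minus estradiol, against the mean level over the 4 libraries for all 13827 genes, with the called genes in colour. The 19 genes lower with BPA lie between -1.74 and -0.77, over a wide range of levels.

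Among secreted and cell-surface enzymes, ALPP had 1.83 and 0.959 scaled RPKM with BPA, against 5.99 and 4.74 with estradiol, 5.50 and 4.42 with genistein and 0.262 and 0.330 with DMSO. The BPA libraries stood between DMSO and estradiol and overlapped neither. The BPA minus estradiol difference was -1.66 (SE 0.215, adjusted p 0.00486). ALPPL2 had 3.23 and 1.81 with BPA, against 8.49 and 7.50 with estradiol and 0.378 and 0.604 with DMSO, in the same order, with a difference of -1.53 (SE 0.223, adjusted p 0.00873). Both were also called higher with BPA than with DMSO, by 1.21 and 1.58 (adjusted p 0.0276 and 0.00372). Without the first estradiol library their differences were -1.505 and -1.446, with adjusted p of 0.104 and 0.159. Carbonic anhydrase 12 (CA12), a membrane enzyme that interconverts carbon dioxide and bicarbonate, had 5.58 and 4.60 with BPA, against 9.33 and 12.1 with estradiol and 2.26 and 2.32 with DMSO. None of these groups overlapped, and the difference was -0.996 (SE 0.163, adjusted p 0.0193), or -1.17 (adjusted p 0.0874) without the first estradiol library.

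G0S2 had the most negative difference. It had 6.57 and 5.55 scaled RPKM with BPA, against 19.4 and 23.4 with estradiol, 13.8 and 18.2 with genistein and 2.75 and 2.95 with DMSO. Every estradiol and genistein library was far above both BPA libraries, which lay nearer to DMSO. The difference was -1.74 (SE 0.285, adjusted p 0.0193), or -1.87 (adjusted p 0.159) without the first estradiol library. BPA minus DMSO was 0.97 (adjusted p 0.792), so no rise with BPA was called. DEGS2, an enzyme of sphingolipid synthesis, had 5.29 and 4.45 with BPA, against 8.67 and 10.4 with estradiol and 2.27 and 2.51 with DMSO. Its libraries kept the same order without overlap, with a difference of -0.90 (SE 0.122, adjusted p 0.00546). DEGS2 kept its call without the first estradiol library (difference -1.02, adjusted p 0.0206).

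Of proteins that build or cut the matrix outside cells, MMP17, a membrane-anchored metalloproteinase, had 4.14 and 3.61 scaled RPKM with BPA, against 12.6 and 10.9 with estradiol and 0.874 and 0.770 with DMSO. It was called in both directions at once: higher with BPA than with DMSO by 1.72 (adjusted p 0.000102) and lower with BPA than with estradiol, with a difference of -1.48 (SE 0.168, adjusted p 0.00176). Without the first estradiol library that difference was -1.39 (adjusted p 0.0595). THBS1, a matrix glycoprotein that binds cells and restrains vessel growth, had 36.3 and 25.1 with BPA, against 118 and 67.6 with estradiol and 15.1 and 26.0 with DMSO. Here the BPA and DMSO libraries overlapped, while both estradiol libraries were higher and far apart from each other. The difference was -1.55 (SE 0.259, adjusted p 0.0223), and -1.15 (adjusted p 0.45) without the first estradiol library. OLFML3, a secreted olfactomedin-family protein, had 1.96 and 1.44 with BPA, against 3.95 and 4.63 with estradiol and 1.40 and 1.40 with DMSO, a difference of -1.13 (SE 0.171, adjusted p 0.0111). Its BPA libraries sat just above DMSO, and without the first estradiol library the difference was -1.23 (adjusted p 0.0878). CILP, a cartilage matrix protein, had 18.5 and 13.5 with BPA, against 31.2 and 28.0 with estradiol and 8.79 and 7.67 with DMSO. Its difference of -0.88 (SE 0.160, adjusted p 0.0386) was called in 9 of 22 alternatives, the fewest of the 21 genes, and was -0.80 (adjusted p 0.493) without the first estradiol library.

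PIM1, a serine/threonine kinase induced by cytokine signalling, had 2.94 and 2.66 scaled RPKM with BPA, against 9.09 and 8.12 with estradiol, 7.65 and 7.19 with genistein and 1.99 and 2.00 with DMSO. Each group was tight, and the BPA libraries lay close above DMSO. The difference was -1.46 (SE 0.143) with the smallest adjusted p of the comparison, 0.00052. PIM1 kept its call in 20 of 21 alternatives, with -1.39 (adjusted p 0.0206) without the first estradiol library. The exception used the 4 libraries alone, where no gene was called. BPA minus DMSO was 0.40 (adjusted p 1).

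A list of chloride and ion channel genes, of which 10 were tested, also holds CA12, which is an enzyme and no channel. Of its members only the channel ANO1 and CA12 were called lower with BPA, while the difference was below 0 in 9 of the 10. Of 9 amino acid and nutrient transporters 1 was called lower, SLC6A6, against 0.137% of all genes. The difference was below 0 in all 9, as in 52.5% of all genes. Its interval lay wholly below 0 in 3 genes of either list, against 4.55% of all genes. These counts include the first estradiol library. The taurine transporter SLC6A6 had 5.22 and 4.23 scaled RPKM with BPA, against 14.7 and 10.9 with estradiol and 2.54 and 2.81 with DMSO, a difference of -1.34 (SE 0.189, adjusted p 0.00677). The calcium-activated chloride channel ANO1 had 10.3 and 7.15 with BPA, against 21.4 and 20.1 with estradiol and 2.83 and 3.06 with DMSO, a difference of -1.23 (SE 0.181, adjusted p 0.00877). In both genes BPA lay between the other groups without overlap, and in ANO1 it was also called above DMSO, by 1.40 (adjusted p 0.0017). The zinc exporter SLC30A1 had 17.4 and 15.2 with BPA, against 31.1 and 25.4 with estradiol and 13.8 and 13.4 with DMSO. Its BPA libraries were just above DMSO, and its difference of -0.77 (SE 0.122, adjusted p 0.0159) was the smallest among the 19. Without the first estradiol library the differences were -1.13 for SLC6A6 (adjusted p 0.148), -1.18 for ANO1 (0.148) and -0.62 for SLC30A1 (0.183).

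The remaining genes lower with BPA had mixed roles. MUC5B, a gel-forming mucin, had 3.10 and 2.60 scaled RPKM with BPA, against 7.60 and 6.90 with estradiol and 0.832 and 0.738 with DMSO, a difference of -1.21 (SE 0.155, adjusted p 0.00486). CABLES1, an adaptor of cyclin-dependent kinases, had 3.99 and 3.41 with BPA, against 8.35 and 7.55 with estradiol and 1.76 and 2.35 with DMSO, a difference of -1.01 (SE 0.134, adjusted p 0.00529). Both showed BPA between DMSO and estradiol without overlap, and without the first estradiol library their differences were -1.15 and -0.94 (adjusted p 0.0878 for either). The corepressor CBFA2T3 (-1.10, adjusted p 0.0314), the zinc finger repressor SALL1 (-0.87, adjusted p 0.0314), the RNA-binding protein RBM24 (-1.13, adjusted p 0.0153) and FAM43A (-0.91, adjusted p 0.0253) completed the list. RBM24 was low throughout, at 0.106 and 0.109 with BPA, against 0.702 and 0.966 with estradiol and 0 and 0.080 with DMSO. The differences were -1.27 for RBM24 (adjusted p 0.0878), -0.86 for CBFA2T3 (0.578), -0.63 for SALL1 (0.414) and -0.80 for FAM43A (0.398) without the first estradiol library.

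Of the 2 genes higher with BPA, TRIM43 had 2.85 and 2.92 scaled RPKM with BPA, against 0.956 and 1.32 with estradiol and 4.19 and 2.40 with DMSO. BPA overlapped DMSO, and estradiol was below both. The difference was 1.05 (SE 0.186, adjusted p 0.0326). TRIM43B, whose longest coding transcript is 99.5% identical, had nearly the same values, so reads cannot be assigned to either with certainty. SNORA25 had 2.28 and 1.51 with BPA, was listed at 0 in both estradiol libraries and had 1.06 and 0.490 with DMSO. As a small nucleolar RNA it is far shorter than 2 kb, so these values rest on few reads. Since it is listed at 0 with estradiol, no fold is given. Neither was called without the first estradiol library, at an adjusted p of 0.578 for TRIM43 and 0.104 for SNORA25.

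How much of the estradiol rise BPA gave was read as the BPA minus DMSO level in percent of the estradiol minus DMSO level, with its range over the 4 pairings of a BPA with an estradiol library. Among the 19 genes that share was lowest in RBM24 at 8.55% (range 7.16 to 10.5), OLFML3 at 10.3% (1.18 to 21.9) and PIM1 at 12.1% (9.35 to 15.4). It was 14.1% in THBS1, 17.3% in G0S2, 27.9% in MMP17, 32.4% in ANO1 and 34.8% in DEGS2, and highest in CILP at 36.3% (22.7 to 52.2). These shares describe the genes and were not tested, and the genes were called on the same libraries.

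**Figure D3:**
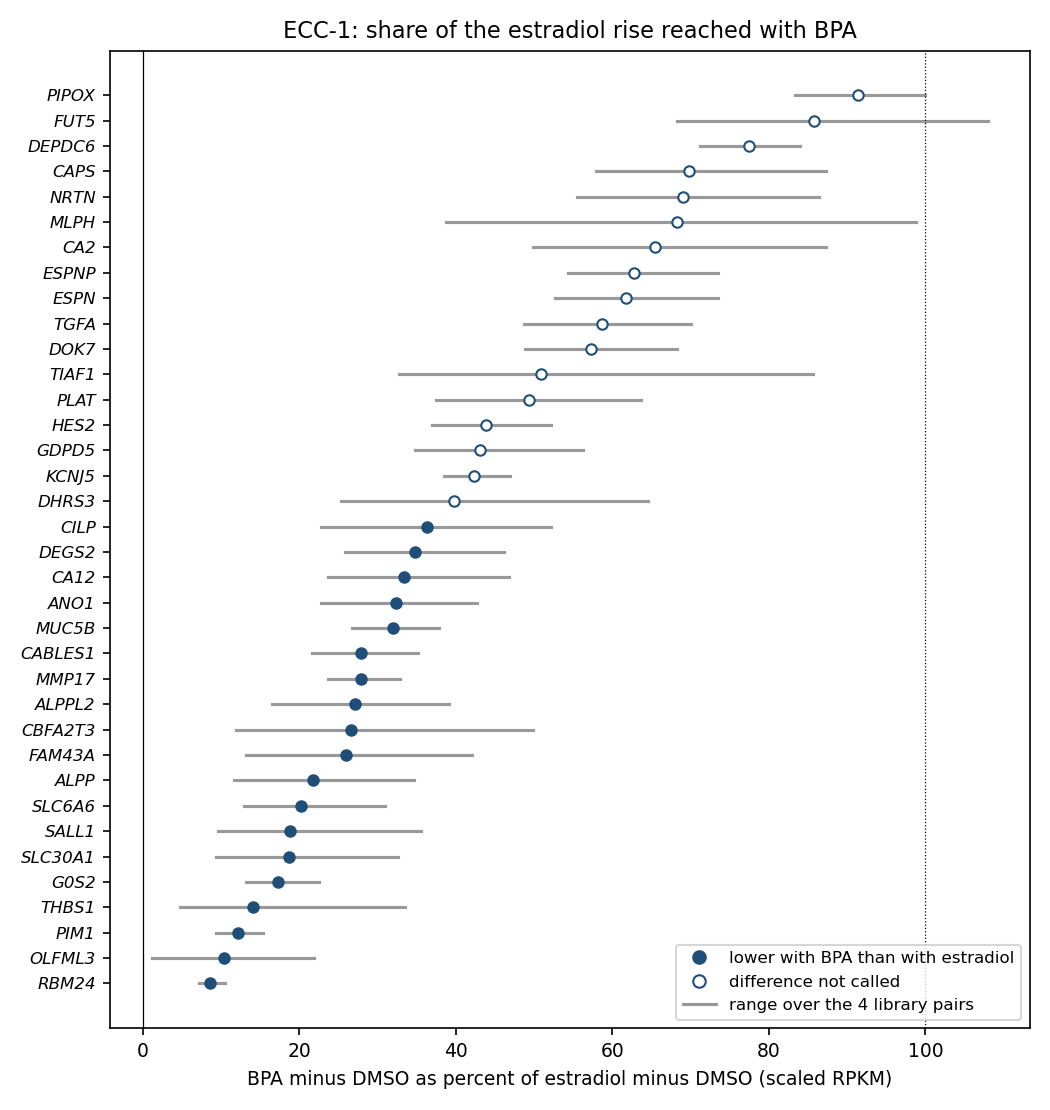
BPA minus DMSO in percent of estradiol minus DMSO, in scaled RPKM, for the genes named because they were called in BPA against estradiol or in BPA against DMSO, or rose most with estradiol. Points are the value from group means and lines the range over the 4 library pairs, and filled points, all at 36.3% or less, are lower with BPA than with estradiol.

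Over all genes that estradiol changed, BPA mostly lay part of the way. Against DMSO, estradiol changed 262 genes (1.89%), of which 196 (1.42%) rose and 66 (0.477%) fell. These genes were chosen on the estradiol libraries that also enter BPA minus estradiol, so their counts are no independent evidence of a direction. Over the 196 raised genes the median BPA minus estradiol difference was -0.51, against -0.01 over all genes tested, and the median share of the rise was 35.3% (quartiles 27 and 48.3). In 180 of them the libraries stood in the order DMSO, BPA, estradiol without overlap, as they did in 647 of all genes (4.68%). In the 11 genes raised over 4-fold the median difference was -1.34, in the 80 raised 2 to 4-fold it was -0.70 and in the 105 raised less it was -0.40. Sorting by the estradiol rise favours this gradient, since the estradiol libraries enter both values. The median share of the rise was 27.9%, 34.1% and 37.1% in these 3 sets. The comparison with estradiol and that with DMSO share the BPA libraries, and the values stand side by side only. Against DMSO, BPA raised 27 genes (0.195%) and lowered 0 (0.0%). Without the first or second estradiol library, estradiol changed 113 or 2162 genes, and without the first or second DMSO library 110 or 134. BPA changed 10 genes without its first library and 11 without the first DMSO library.

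Several of the strongest estradiol targets were raised by BPA against DMSO and not called different from estradiol. DEPDC6, which encodes the mTOR inhibitor DEPTOR, had 17.6 and 15.8 scaled RPKM with BPA, against 20.2 and 20.8 with estradiol and 3.80 and 3.13 with DMSO. Both BPA libraries were below both estradiol libraries and far above DMSO, at 77.5% of the rise (71.2 to 84.0). The BPA minus estradiol difference was -0.29 with an interval of -0.59 to 0.0032. Transforming growth factor alpha (TGFA), which activates the EGF receptor, had 104 and 89.2 with BPA, against 134 and 147 with estradiol and 35.1 and 34.4 with DMSO. Its share was 58.7%, with an interval of -0.80 to -0.28 that excluded 0 before adjustment (adjusted p 0.128). Neurturin (NRTN), a neurotrophic ligand of the GDNF family, had 27.9 and 24.5 with BPA, against 30.9 and 37.3 with estradiol and 10.3 and 6.99 with DMSO, a share of 69.0%. The BPA libraries were below both estradiol libraries without overlap. Without the first estradiol library the intervals were -0.67 to 0.0505 for DEPDC6, -0.91 to -0.30 for TGFA and -0.96 to -0.046 for NRTN, again with no call.

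ESPN, an actin-bundling protein, had 68.9 and 72.3 scaled RPKM with BPA, against 107 and 88.7 with estradiol and 26.7 and 26.8 with DMSO, a share of 61.8% (interval of the difference -0.75 to -0.18). The transcribed pseudogene ESPNP had nearly the same differences, and shared reads between them cannot be told apart. Carbonic anhydrase 2 (CA2), a cytosolic relative of CA12, had 35.9 and 32.0 with BPA, against 38.6 and 47.1 with estradiol and 16.4 and 17.9 with DMSO. Its share was 65.4% (49.8 to 87.3), where that of CA12 was 33.4% (23.7 to 46.8). The 2 ranges did not overlap, and the difference between the genes was not tested. The intervals of the BPA minus estradiol difference were -0.65 to -0.0108 for ESPN and -0.78 to -0.16 for CA2 without the first estradiol library.

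The retinal reductase DHRS3, which limits retinoic acid formation, rose most with estradiol, by 3.91 on the log2 scale. It had 8.28 and 11.7 scaled RPKM with BPA, against 17.5 and 29.5 with estradiol and 0.750 and 1.42 with DMSO. The estradiol libraries were higher but differed widely, and the difference of -1.17 (interval -1.89 to -0.44, adjusted p 0.416) was not called. HES2, a hairy-type transcriptional repressor, had 28.6 and 25.7 with BPA, against 54.1 and 46.6 with estradiol and 9.20 and 8.85 with DMSO, with a difference of -0.88 (SE 0.191, adjusted p 0.101). BPA lay between the other groups without overlap, though the test across genes was not passed. With the first estradiol library left out, the differences were -1.54 for DHRS3 (adjusted p 0.697) and -0.77 for HES2 (adjusted p 1).

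A gene was taken to reach the estradiol level if the whole 95% interval of the difference lay within 1.5-fold to either side. By this rule 25 of the 196 raised genes (12.8%) and 16 of the 66 lowered genes reached it, while 73.7% of all genes tested met the same interval. A further 152 raised and 48 lowered genes were undetermined, neither called nor within the margin. Both counts fell without the first estradiol library, without either BPA library and without either DMSO library, and rose without the second estradiol library. In each of these fits the estradiol-changed genes were called anew, so the counts do not follow the same 25 and 16 genes. In 11 of the 25 and 10 of the 16 the estradiol change was itself within 1.5-fold, so a level equal to that with DMSO would lie inside the margin. Under the same rule with a narrower margin no gene reached it, and at 2-fold 134 raised and 59 lowered genes did, when 98.3% of all genes were within it. With the added demands, chosen after the values were seen, that the estradiol change exceed 1.5-fold and that BPA minus DMSO have an interval away from 0, 14 raised and 6 lowered genes remained.

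Of the 14, PIPOX, a peroxisomal enzyme that breaks down pipecolic acid and sarcosine, had 3.15 and 3.03 scaled RPKM with BPA, against 3.14 and 3.45 with estradiol and 1.08 and 0.844 with DMSO. BPA and estradiol libraries overlapped and were well above DMSO. The difference was -0.08 (interval -0.40 to 0.24), and BPA minus DMSO was 1.30 (adjusted p 0.000568). FUT5, a fucosyltransferase that fucosylates cell-surface glycans, had 1.21 and 1.05 with BPA, against 1.36 and 1.15 with estradiol and 0.356 and 0.413 with DMSO, a difference of -0.10 (interval -0.38 to 0.17). It overlapped likewise, was also called above DMSO (0.88, adjusted p 0.00496), and has close paralogs that may share its reads. PIPOX and FUT5 were the 2 genes among the 27 raised by BPA that met the rule.

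ABHD11, a mitochondrial hydrolase, had 25.9 and 28.5 scaled RPKM with BPA, against 26.3 and 30.6 with estradiol and 17.1 and 17.7 with DMSO, a share of 89.2%, with overlap of BPA and estradiol. Vasorin (VASN), a membrane protein that binds transforming growth factor beta, had 50.6 and 55.3 with BPA, against 65.4 and 59.2 with estradiol and 33.3 and 37.7 with DMSO. Its BPA libraries were just below both estradiol libraries, with an interval of -0.58 to 0.11. The transcription factor gene MYC had 29.5 and 31.2 with BPA, against 35.4 and 33.1 with estradiol and 19.0 and 22.4 with DMSO, and its interval was -0.51 to 0.16. The others were QSOX2, a thiol oxidase, SLC5A6, a vitamin transporter, IER5L, ST8SIA4, a polysialyltransferase, TAF4B, a subunit of the general transcription factor TFIID, WDR3, a ribosome assembly factor, P2RX5, an ATP-gated channel, AK3L1 and C18orf45. Over the 14 genes the median difference was -0.24 and the median share of the rise 59.2%, so the rule marks a difference inside the margin and not equal levels. In 11 of the 14 both BPA libraries lay below both estradiol libraries, as in 18.7% of all genes. The 14 were chosen on these estradiol libraries, which favours that order. Without the first estradiol library the interval of 9 of the 14 lay within the margin, PIPOX (-0.53 to 0.26), FUT5 (-0.33 to 0.30), ABHD11 (-0.51 to 0.17) and MYC (-0.54 to 0.29) among them, and that of VASN (-0.59 to 0.27) crossed it.

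Genes lowered by estradiol stood the other way. Over the 66 the median BPA minus estradiol difference was 0.44, and in 47 the libraries were ordered DMSO, BPA, estradiol from high to low without overlap (477 of all genes, 3.45%). Among the 6 that reached the estradiol level, IGFBP3, which binds insulin-like growth factors, had 448 and 425 scaled RPKM with BPA, against 431 and 371 with estradiol and 544 and 713 with DMSO. BPA and estradiol overlapped below DMSO, with a difference of 0.12 (interval -0.20 to 0.44), whose sign turned to -0.11 with quantile normalization. GPR110, an adhesion G protein-coupled receptor, had 11.4 and 12.1 with BPA, against 9.52 and 9.77 with estradiol and 15.7 and 17.2 with DMSO. It lay between without overlap (interval 0.0015 to 0.55). Without the first estradiol library the intervals were -0.15 to 0.62 for IGFBP3, past the margin, and -0.07 to 0.58 for GPR110, within it, and 2 of the 6 genes lay within it. The others were FAM107A, NTNG1 and the keratins KRT6B and KRT6C, which are close in sequence. YPEL3, a gene known to restrain cell growth, had 4.09 and 4.63 with BPA, against 2.53 and 2.59 with estradiol and 5.37 and 5.66 with DMSO, with a difference of 0.66 (adjusted p 0.0749), or 0.65 (adjusted p 0.614) without the first estradiol library.

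None of 10 genes of a panel of known estrogen and xenobiotic targets was called between BPA and estradiol, and with 0.152% of all genes called this says nothing particular of the panel. GREB1, a coactivator of the receptor and its classical target, had 2.35 and 1.86 scaled RPKM with BPA, against 4.51 and 3.63 with estradiol and 1.99 and 1.43 with DMSO. BPA overlapped DMSO and was below both estradiol libraries, with a difference of -0.81 (interval -1.26 to -0.36, adjusted p 0.27). The progesterone receptor gene PGR had 0.302 and 0.168 with BPA, against 0.781 and 0.768 with estradiol and 0.0940 and 0.0480 with DMSO, a difference of -0.80 (interval -1.19 to -0.41, adjusted p 0.135). Its estradiol libraries were well above the rest at a low level. The differences without the first estradiol library were -0.67 for GREB1 and -0.79 for PGR (adjusted p 1 and 0.85). ESR1 itself had 20.2 and 19.4 with BPA, against 19.3 and 17.1 with estradiol, with an interval of -0.26 to 0.49. Cyclin D1 (CCND1) had 250 and 228 with BPA, against 318 and 255 with estradiol, with an interval of -0.59 to 0.08. CYP1A1, a target of the aryl hydrocarbon receptor, averaged 1.43 with BPA and 1.31 with estradiol, against 3.26 with DMSO. No gene of the panel was called lower than with DMSO for either compound. TFF1 and CXCL12, estrogen targets of breast cells, were listed at 0 in both estradiol libraries.

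Wider lists, written from general knowledge with earlier results of these data known, are described by counts only. Of 21 tested genes linked to estrogen in the endometrium 5 were called lower with BPA (ALPP, ALPPL2, G0S2, MUC5B and OLFML3), against 0.137% of all genes. ALPP and ALPPL2 may share reads. Of 37 estrogen-induced genes of breast cancer cells 1 was called lower, CA12. Of 20 estrogen-repressed genes of breast cancer cells none was called. Of 27 G1/S genes and 22 G2/M genes none was called, with median differences of 0.01 and 0.07. None was called of 8 aryl hydrocarbon receptor targets, 12 NRF2 targets, 17 genes of the unfolded protein and amino acid stress response, 17 of sterol synthesis, 15 interferon-induced genes, 26 ribosome biogenesis genes or 16 receptors and cofactors. With 0.152% of all genes called, a list of such size mostly has no call. The difference was below 0 in 15 of the 16 receptors and cofactors (median -0.21) and 21 of the 26 ribosome biogenesis genes (median -0.19), as in 52.5% of all genes. Both lists were read with the first estradiol library included, and their values without it are not given. The medians of the other lists in this group ran from -0.11 to 0.05. The cofactor NRIP1, a corepressor of nuclear receptors, had 10.1 and 7.97 scaled RPKM with BPA, against 17.4 and 13.1 with estradiol and 7.92 and 6.62 with DMSO, with a difference of -0.72 (adjusted p 0.136). Cyclin D2 (CCND2), of the G1/S list, had 3.97 and 3.12 with BPA, against 9.40 and 5.71 with estradiol and 2.36 and 2.71 with DMSO, with a difference of -0.96 (adjusted p 0.0519). Both BPA libraries of either gene were below both estradiol libraries, and without the first estradiol library the differences were -0.52 and -0.63 (adjusted p 1 and 0.625).

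Genes chosen on genistein gave a view of the comparison through libraries whose levels do not enter its difference. The fit gives each gene 1 spread for all groups. A small spread therefore favours both a genistein call and an interval clear of 0, so the counts below are not fully independent. Genistein raised 112 genes against DMSO (0.81%) and lowered 22 (0.159%). Over the 112 the median BPA minus estradiol difference was -0.61, with a range of -0.66 to -0.52 over the 4 library pairs, against -0.01 over all genes. The difference was below 0 in 110 of them, as in 52.5% of all genes. Its interval lay wholly below 0 in 92 (82.1%), against 4.55% of all genes, and within the 1.5-fold margin in 13. Without a DMSO or genistein library, genistein raised 57 to 62 genes, with medians of -0.70 to -0.67. All 19 genes called lower with BPA were among the 112. Over the 22 lowered genes the median was 0.33, and the interval lay wholly above 0 in 13 (59.1%), against 2.51% of all genes. With the lists held fixed, leaving out the first estradiol library gave medians of -0.58 and 0.34, with 77 of the 112 and 11 of the 22 intervals wholly to the same sides.

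**Figure D4:**
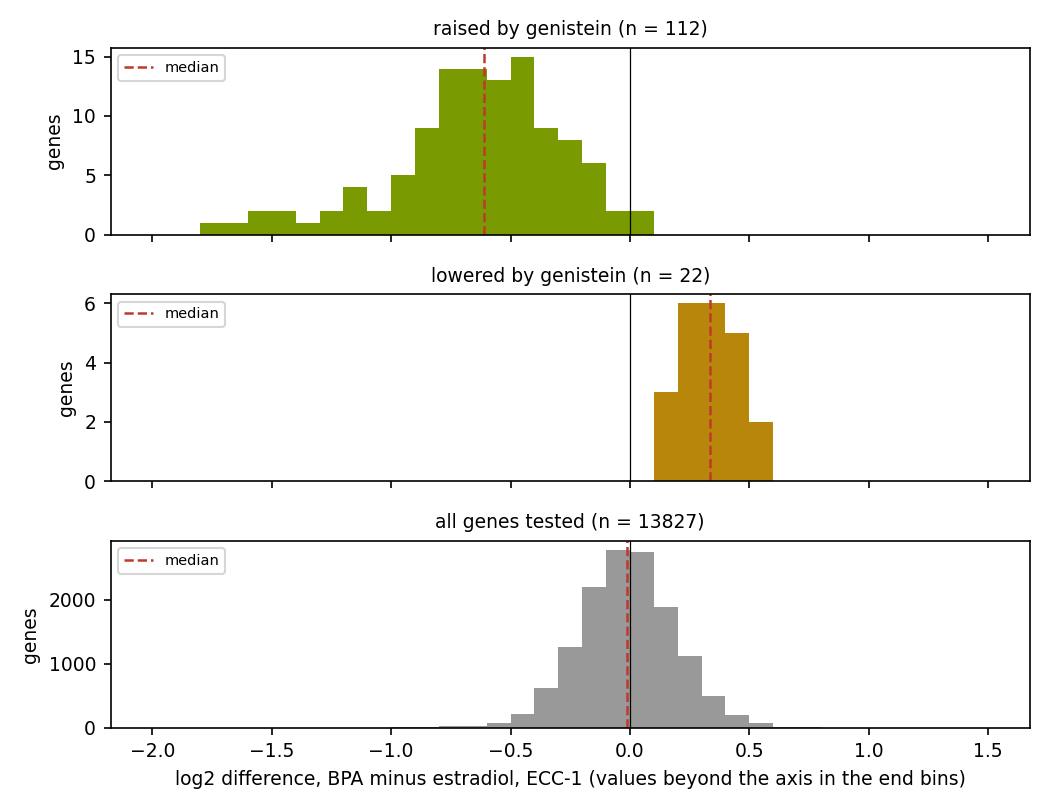
Number of genes by log2 difference, BPA minus estradiol, in ECC-1, for the 112 genes raised by genistein, the 22 lowered by it and all 13827 genes tested, with the median of each as a dashed line. The medians are -0.61, 0.33 and -0.01.

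In T-47D, at the same doses, 334 genes (2.42%) were called between BPA and estradiol, 135 higher (0.976%) and 199 lower (1.44%) with BPA. The difference itself differed between the lines at 107 genes (0.774%), 66 of them (0.477%) with a higher value in ECC-1 and 41 (0.297%) with a lower one. That count was 24 or 1739 without the first or second ECC-1 estradiol library and 31 or 19 without the first or second ECC-1 BPA library. The 291 genes that estradiol raised in T-47D had a median BPA minus estradiol difference of -0.08 in ECC-1. MYC had 3.86 and 6.11 scaled RPKM with BPA in T-47D, against 14.7 and 14.1 with estradiol and 3.07 and 2.95 with DMSO, so BPA was far below estradiol there (-1.47, adjusted p 0.000101), while in ECC-1 its interval lay within the 1.5-fold margin. The difference between the lines was 1.30 (SE 0.222, adjusted p 0.0122). The scaffold gene PDZK1 had 2.32 and 2.78 with BPA in T-47D, against 6.57 and 7.10 with estradiol, and 1.39 and 1.14 with BPA in ECC-1, against 1.09 and 1.12 with estradiol. With DMSO it had 2.15 and 1.59 in T-47D and 1.39 and 0.986 in ECC-1. It was lower with BPA than with estradiol in T-47D. In ECC-1 BPA and estradiol overlapped each other and DMSO, and no estradiol change was called, so there was no estradiol rise to reach. The lines differed by 1.40 (SE 0.227, adjusted p 0.00971). Of the 19 genes lower with BPA in ECC-1, 10 differed between the lines. The 19 were chosen on a difference that is part of this test, which favours a lower value in ECC-1. CA12, THBS1 and RBM24 were called lower with BPA in T-47D too, with differences of -0.99 (adjusted p 0.00311), -1.52 (0.00421) and -1.34 (0.00055) there, and no difference between the lines was called for them. G0S2, ALPP, ALPPL2 and MUC5B were under 1 scaled RPKM in all T-47D libraries of BPA and estradiol, while MMP17 had 7.30 and 7.94 with BPA and 9.65 and 6.75 with estradiol there, with overlap.

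**Figure D5:**
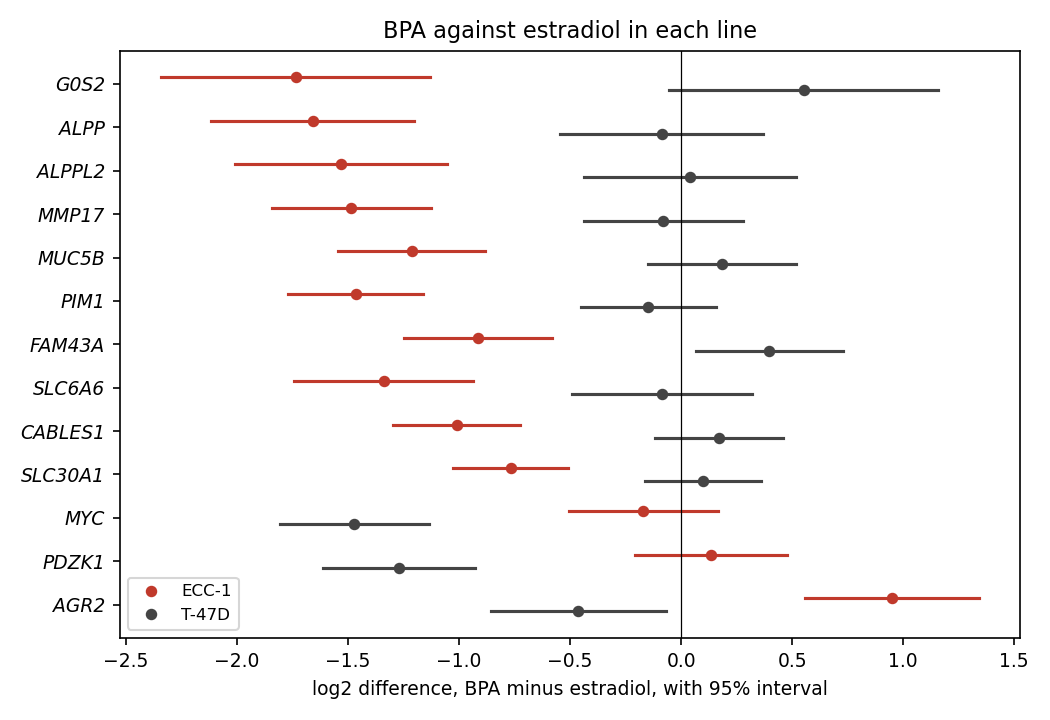
Log2 difference, BPA minus estradiol, with its 95% interval, in ECC-1 and in T-47D for the 13 named genes at which the lines differed. In the upper 10 genes the ECC-1 interval lies below 0, and for MYC, PDZK1 and AGR2 the T-47D interval does, while that of AGR2 in ECC-1 lies above 0.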

How the data were processed

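The authors deposited 1 table of RPKM values per library, with 32062 rows, each a RefSeq transcript. Alignment used Bowtie and hg19, per the submitters' processing notes. The counting step and the treatment of reads that match several places are not given in the sources used here. Per the labels' protocols, libraries keep no strand, so overlapping and antisense genes cannot be told apart. The tables hold RPKM and not counts, and the steps of low values gave an estimate of depth; 64.3 to 66.2% of such values lay within 0.1 read of a whole number (20% by chance), and a 2 kb transcript at 1 RPKM rests on 34.7 to 58.6 reads.

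The transcript with the highest mean stood for each of 21453 symbols. Libraries were divided by median-ratio factors (0.938 to 1.05). Genes at 1 RPKM or more in 2 or more of 16 libraries were fitted on log2(scaled RPKM + 0.5) with limma 3.58.1 in R 4.3.3, with 8 group means, eBayes with trend and no block (8 residual degrees of freedom), and two-sided p-values adjusted by Benjamini-Hochberg within each contrast. The groups of 2 share 1 spread, though estradiol libraries varied more. The script was tested on simulated data. With 2 libraries a group no permutation test can pass 0.05. Lengths, known for 94.1% of genes, came from GENCODE release 29, matched by RefSeq transcript, and promoter sequences came from RefSeq.

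The genes and lists were chosen with earlier results of these data known. Named are the 15 largest called differences of BPA minus estradiol in each direction, the 12 largest estradiol changes among genes that reached its level, the 12 largest rises and 6 largest falls with estradiol, genes called in BPA minus DMSO, a panel, up to 4 members of each list, markers and 6 interactions. The text gives part of these, and names the other called genes and the genes reached under the added rule after seeing their values. A gene that the rule names is not reported here. Scaling, pseudocount, filter, transcript choice, spread, libraries in the fit, block and left-out libraries were varied.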

Additional observations from a re-analysis of the deposited data

Results flagged for a closer look

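The BPA minus estradiol difference of ECC-1 minus that of T-47D was tested as an interaction in the limma fit, and 13 of the genes followed passed an adjusted p of 0.05. It was -2.29 for G0S2 (adjusted p 0.0158), -1.57 for ALPP (0.0254), -1.57 for ALPPL2 (0.0297) and -1.40 for MUC5B (0.00875), all 4 under 1 scaled RPKM with BPA and estradiol in T-47D. It was -1.40 for MMP17 (adjusted p 0.0119), -1.32 for PIM1 (0.00718), -1.31 for FAM43A (0.0119), -1.25 for SLC6A6 (0.0435), -1.18 for CABLES1 (0.00971) and -0.87 for SLC30A1 (0.0283). It was positive for MYC at 1.30 (adjusted p 0.0122), PDZK1 at 1.40 (0.00971) and AGR2 at 1.41 (0.0196). AGR2, a secretory-pathway protein, had 3.86 and 3.72 scaled RPKM with BPA in ECC-1, against 1.41 and 2.07 with estradiol, and 306 and 257 with BPA in T-47D, against 388 and 386 with estradiol. Its difference was 0.95 (adjusted p 0.0559) in ECC-1 and -0.46 (0.248) in T-47D, neither of them called. In the other genes either the ECC-1 or the T-47D difference was called and the other was not. The smallest and largest counts of interaction calls over the alternatives were 1 and 1739 genes, and the first estradiol library of T-47D stood apart as well, with an SD between its pair of 0.411.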

How the results depend on the processing

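All 21 called genes kept their direction in every alternative that measured them, but the alternatives reuse the libraries of the call. Of 1649 other-setting values of 76 single genes, 1452 stayed on their side of the threshold, 151 lost it, 43 gained it and 3 changed sign: IGFBP3 at -0.11 with quantile normalization, and ABHD11 at 0.0094 without the first BPA and 0.0491 without the second estradiol library (-0.17 to 0.0491 over the left-out libraries). The counts moved. Genes lower and higher with BPA than with estradiol (19 and 2) were 29 and 2 at a pseudocount of 1, 22 and 5 with no filter, 28 and 4 with no trend, 12 and 0 at a mean of at least 5 RPKM (which measured 12 of the 21), 2 and 0 with array weights (PIM1, MMP17), 1 and 0 with ECC-1 alone and 0 and 0 with the 4 libraries alone (555 genes at an unadjusted p under 0.05). They were 12 and 0 with the first estradiol library of each line omitted, 9 of them shared with the 21, and 34 and 5 with length and GC trends removed, 16 shared; both settings, like the added rule of reaching, were chosen after seeing the data. Leaving out 1 library gave 1 to 505 lower and 0 to 445 higher, 505 and 445 without the second estradiol library and 1 and 0 without the second BPA library. The estradiol-raised genes that fell short (19) were 12, 2, 1, 12 and 34 at a mean of 5 RPKM, with array weights, with ECC-1 alone, with the first estradiol libraries omitted and with trends removed, and 1 to 476 with 1 library left out.

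Genes changed by estradiol (262) were 138 at a mean of 5 RPKM, 123 with array weights, 143 with ECC-1 alone and 673 with trends removed, and 110 to 2162 with 1 library left out, 113 without the first estradiol library. Raised and lowered genes that reached its level (25 and 16) were 13 and 6 at a pseudocount of 0.1, 44 and 35 at 1, 59 and 37 with no filter, 12 and 7 at a mean of 5 RPKM, 6 and 0 with array weights, 16 and 5 with ECC-1 alone, 252 and 157 with trends removed, 0 and 0 at the narrower margin, 134 and 59 at 2-fold and 14 and 6 under the added rule; 9 lowered genes did with transcripts summed. With 1 library left out they were 3 to 36 and 0 to 44. Genes changed by BPA (27) were 16 at a pseudocount of 0.1, 68 with array weights, 9 with ECC-1 alone and 41 with the first estradiol libraries omitted, and 10 to 27 with 1 library left out.

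With genistein lists chosen anew, the medians (-0.61 and 0.33) were -0.54 and 0.27 at a pseudocount of 1, -0.52 and 0.21 with no filter, -0.26 and 0.17 with array weights (479 and 362 genes), -0.24 and 0.17 with the first estradiol libraries omitted (288 and 127 genes) and -0.32 and 0.23 with trends removed (211 and 77 genes). That of lowered genes was also 0.39 with quantile normalization, 0.37 with transcripts summed and 0.39 with ECC-1 alone. With 1 library left out they ran from -0.70 to -0.51 and from 0.27 to 0.47. The share of intervals below 0 (82.1%) was 30.1% with array weights and 43.8% with the first estradiol libraries omitted. With the main lists held fixed, the medians of the raised genes were -0.61 and -0.58 in these 2 settings. Interaction calls (107) were 71 at a pseudocount of 0.1, 38 at a mean of 5 RPKM, 1 with array weights, 65 with the first estradiol libraries omitted and 207 with trends removed, and 19 to 1739 with 1 library left out. The cause was not tested, beyond the fewer genes or libraries and longer lists named.

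Same-numbered ECC-1 libraries deviated together with correlations of -0.19 to 0.30 over 6 pairs of groups, so the numbers were not taken as pairs. A replicate block gave 39 lower and 4 higher genes, all 21 among them, with 38 estradiol-raised genes that fell short.

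The median half-width of the 95% interval was 0.33 (log2), and the called difference nearest to 0 was -0.77 (SLC30A1). With 2 libraries a group, and 1 estradiol library that stands apart, counts of calls are uncertain. The order of levels was read in these same libraries and was not tested on others.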
